A study of Mus with 8 samples.

Results

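This account follows 10 genes for neutrophil granule proteins and S100 alarmins through 8 RNA-seq libraries of mouse bone marrow monocytes. The members were taken from the count table by Ensembl ID, and all 10 were found among its 17640 IDs: S100a8, S100a9, Elane, Mpo, Prtn3, Ctsg, Ltf, Camp, Ngp and Lcn2. The cells came from C57BL/6 mice of 2 genotypes, Vav-iCre controls and Jak2 V617F Vav-iCre mice. Vav-iCre expresses the recombinase in blood-forming cells, so both genotypes carry Cre, and the mutant Jak2 is a driver of myeloproliferative neoplasm. Monocytes were purified by negative selection, embedded in a viscous or an elastic stiff hydrogel and collected on day 3; every culture held the cytokines GM-CSF at 100 ng/mL and IL4 at 200 ng/mL, and prostaglandin E2 (PGE2) at 100 ng/mL. Each of the 4 combinations of genotype and gel has 2 libraries. Sex and age of the mice, and any pooling, are not given in the sources used here.

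Granule proteins are made in waves as neutrophils mature in bone marrow. The primary (azurophil) granule enzymes are transcribed in promyelocytes and in granulocyte-monocyte progenitors, the secondary granule proteins later, in myelocytes, and transcription of both largely stops before cells leave the marrow. S100A8 and S100A9 pair to form calprotectin, a calcium- and zinc-binding alarmin abundant in neutrophils and classical monocytes. Lcn2 differs from the other secondary granule genes in that macrophages and many epithelia also induce it in inflammation.

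In these libraries Lcn2 and the S100 pair were well covered, while the other 7 members were close to the counting limit. Lcn2 had 5143 to 70764 counts in a library, S100a8 453 to 2204 and S100a9 102 to 1921. No other member exceeded 79 counts in any library, and Elane had at most 5. Counts cannot be compared between genes as levels, because no transcript lengths were used. Within a gene, the values below are CPM, counts per 1e+06 counts of the TMM-scaled library total. In these bulk samples, fewer cells of a type and less RNA per cell cannot be told apart.

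Libraries held 30632355 to 38408851 counts. The last number of a title recurs once per gel within a genotype; by rising number, these title numbers are W1 and W2 for control and J1 and J2 for Jak2 V617F cells. What it marks (a mouse, a culture, a day) is not stated, so p-values reflect spread among libraries that may in part be technical. Both W1 libraries stood apart from the other 6 on the first principal component of log2 CPM (scores 78.2 and 69.4, against −37.1 to −10.9). Fitted differences between gels and genotypes that rest on them are given with and without them. Spreads, correlations and distances between profiles are given over all libraries only. Other markers of monocytes, neutrophils and progenitors were not analysed here, since the count table gives Ensembl IDs without symbols.

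**Figure D1:**
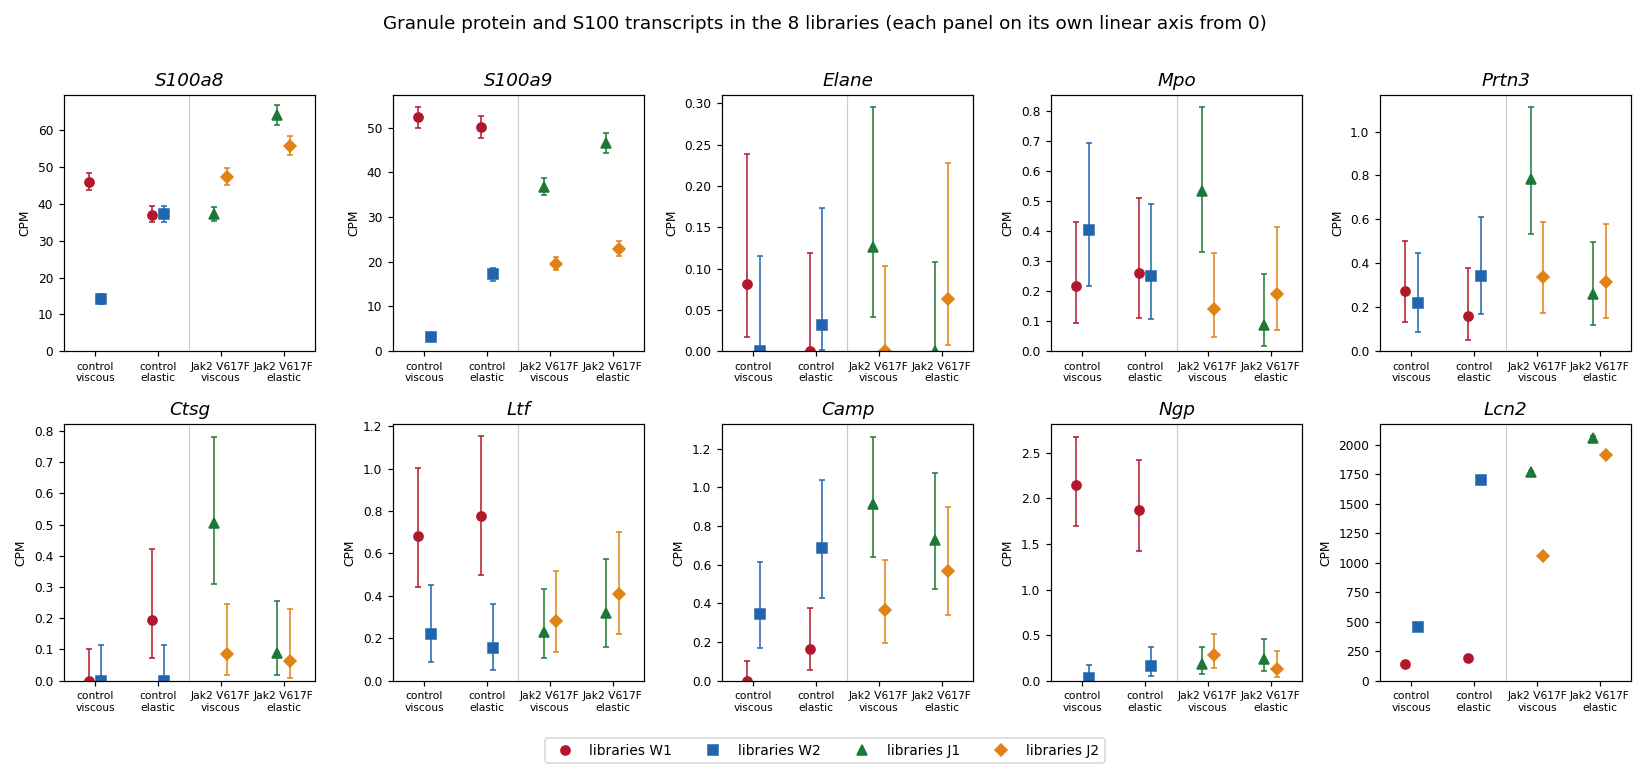
Each panel shows 1 gene on its own linear axis: CPM in each of the 8 libraries by genotype and gel, with symbols for title numbers and bars for 95% Poisson intervals (counting error only). Lcn2 reached 2060 CPM and was lowest in both W1 libraries, Ngp stood near 2 CPM in the W1 libraries and at or below 0.281 CPM in the others, and Elane never exceeded 0.127 CPM.

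The calprotectin genes S100a8 (ENSMUSG00000056054) and S100a9 (ENSMUSG00000056071) lie next to each other on mouse chromosome 3 (GRCm38, 90669071 to 90670034 and 90692630 to 90695721), with no other protein-coding gene between them. S100a8 stood at 46.1 CPM (W1) and 14.1 CPM (W2) in control cells in viscous gel, and at 37.1 and 37.3 CPM in elastic gel. Jak2 V617F cells had 37.3 CPM (J1) and 47.4 CPM (J2) in viscous gel, and 64.2 and 55.8 CPM in elastic gel. The 2 elastic Jak2 V617F libraries were thus the highest of the 8, and the control viscous W2 library was the lowest by a wide margin.

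S100a9 spread further than its partner. It stood at 52.3 CPM (W1) and 3.17 CPM (W2) in control cells in viscous gel, and at 50.1 and 17.2 CPM in elastic gel. The Jak2 V617F values were 36.7 CPM (J1) and 19.5 CPM (J2) in viscous gel, and 46.5 and 22.8 CPM in elastic gel. In every group 1 library was at least 1.88-fold above the other, and in both gels of a genotype it carried the same title number.

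The balance of the 2 subunits' transcripts followed the title number too. The W1 libraries had 1.13 (95% interval 1.06 to 1.21) and 1.35 (1.25 to 1.46) S100a9 counts per S100a8 count, in viscous and elastic gel. The W2 libraries had 0.225 (0.180 to 0.280) and 0.461 (0.416 to 0.511). The ratio in Jak2 V617F cells was 0.984 (0.915 to 1.06) and 0.725 (0.679 to 0.773) for J1, and 0.412 (0.377 to 0.450) and 0.409 (0.375 to 0.447) for J2. In both genotypes the 2 gels of a number lay closer to each other than to either gel of the other number. Between the gels of 1 number, intervals overlapped for J2 and not for W1, W2 or J1. These exact binomial intervals cover counting error only.

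**Figure D2:**
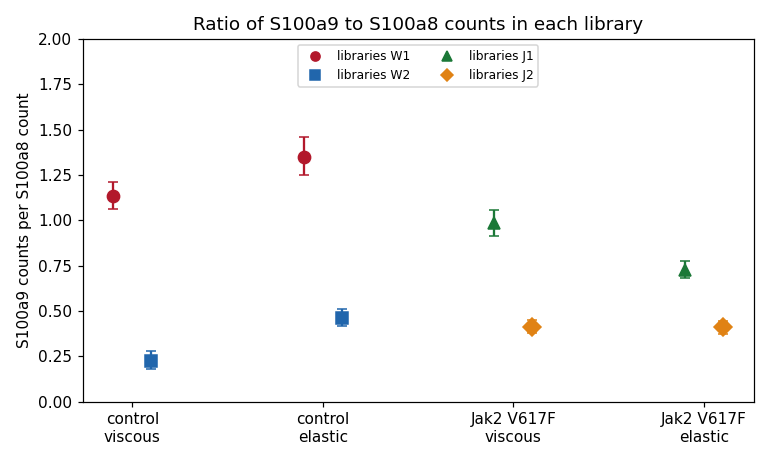
Counts of S100a9 per count of S100a8 in each library (linear axis from 0), by genotype and gel, with 95% exact binomial intervals. The numbers W1 and J1 lie at 0.725 to 1.35 and the numbers W2 and J2 at 0.225 to 0.461 in both gels.

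The primary granule enzymes were near the detection limit in 7 of the 8 libraries. They are the serine proteases neutrophil elastase (Elane, ENSMUSG00000020125), proteinase 3 (Prtn3, ENSMUSG00000057729) and cathepsin G (Ctsg, ENSMUSG00000040314), which cut matrix and microbial proteins, and myeloperoxidase (Mpo, ENSMUSG00000009350), the haem enzyme that makes hypochlorous acid. Prtn3 and Elane are neighbours on chromosome 10 (79879667 to 79883174 and 79886312 to 79888216). Mpo lies on chromosome 11 (87793784 to 87804412), where the annotation places the model Gm34064 over it, and Ctsg on chromosome 14 (56099885 to 56102574). Summed over the 4 genes, 7 libraries had 15 to 21 counts and the Jak2 V617F viscous J1 library had 77. In CPM this is 0.437 to 0.632 in the 7, with 95% Poisson intervals of 0.244 to 0.976 in all, against 1.95 (1.54 to 2.44) in the 1.

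That library was the highest of the 8 for each of the 4 enzymes. It held 31 counts of Prtn3, where the others held 5 to 12, and 21 counts of Mpo, where the others held 3 to 13. Ctsg had 20 counts in it, 6 in the control elastic W1 library, at most 3 in any other and 0 in 3 libraries. Elane had 5 counts in it, 3 or fewer in the rest and 0 in 4 libraries; 3 counts, the limit taken for a count of 0, are at most 0.0969 CPM per library (one-sided), and the two-sided Poisson intervals of these zeros end at up to 0.119 CPM. Its Jak2 V617F viscous replicate, J2, and the elastic library of its own number, J1, had 20 and 15 counts in all, within the range of the others. Camp was highest in the same library (36 counts), and S100a8 was not (37.3 CPM).

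**Figure D3:**
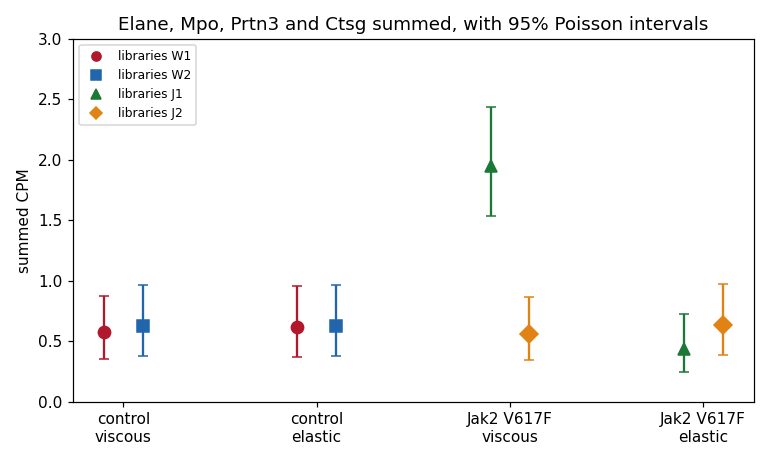
Summed CPM of Elane, Mpo, Prtn3 and Ctsg in each library (linear axis from 0), with 95% Poisson intervals for counting error. The Jak2 V617F viscous J1 library stands at 1.95 CPM and the other 7 at 0.437 to 0.632 CPM.

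Of the secondary granule genes, 3 lie on chromosome 9: Camp (ENSMUSG00000038357, 109847377 to 109849456), Ngp (ENSMUSG00000032484, 110419808 to 110423012) and Ltf (ENSMUSG00000032496, 111019292 to 111042766). Camp encodes the precursor of the antimicrobial cathelicidin peptide, Ltf the iron-binding lactoferrin and Ngp a neutrophil granule protein of the cystatin fold. Ngp had 79 and 58 counts in the control W1 libraries (viscous and elastic) and 1 and 5 in the W2 libraries. The 4 Jak2 V617F libraries had 4 to 10 counts of Ngp. Ltf showed the same 2 libraries on top, with 25 and 24 counts, against 7 and 5 in W2 and 9 to 13 in Jak2 V617F cells.

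Camp ran the other way in control cells. It had 0 and 5 counts in the W1 libraries, the lowest of the 8, and 11 and 22 in the W2 libraries. The Jak2 V617F libraries had 36 (J1) and 13 (J2) in viscous gel, and 25 and 18 in elastic gel. So the W1 libraries combined the highest Ngp and Ltf with the lowest Camp.

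Lcn2 (ENSMUSG00000026822), on chromosome 2 (32384637 to 32387739), encodes lipocalin 2, which withholds iron from bacteria by binding their siderophores. It was at 140.0 CPM (W1) and 454 CPM (W2) in control cells in viscous gel, and at 191 and 1703 CPM in elastic gel. Jak2 V617F cells had 1765 CPM (J1) and 1053 CPM (J2) in viscous gel, and 2060 and 1916 CPM in elastic gel. Within each gel both Jak2 V617F libraries lay above both control libraries, but across gels the control elastic W2 library exceeded the Jak2 V617F viscous J2 library. Lcn2 alone made up most of the summed share of the 10 members, which ran from 0.0254% of a library (control viscous W1) to 0.213% (Jak2 V617F elastic J1). Without Lcn2 the other 9 summed to 0.00182% to 0.0110%, lowest in the control viscous W2 library.

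In control cells more members differed by 2-fold between title numbers than between gels. Set side by side, 1 library against 1, W1 was at least 2-fold above W2 in both gels for 3 of the 8 members that passed the low-count filter (S100a9, Ngp and Ltf), where 5.48% of 14785 IDs were. It was at least 2-fold below for 2 of 8 (Camp and Lcn2), where 3.37% of IDs were. Ngp passed the filter only through the W1 libraries, so its place among the 3 follows in part from that selection. S100a9 was 16.5-fold higher in W1 in viscous and 2.92-fold higher in elastic gel, Ltf 3.12-fold and 4.98-fold, and Ngp 12.0-fold in elastic gel (58 against 5 counts). Lcn2 was 3.25-fold higher in W2 in viscous and 8.91-fold higher in elastic gel.

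S100a8 was 3.27-fold higher in W1 in viscous gel and level in elastic gel (37.1 against 37.3 CPM). Between gels, by contrast, 0 of 8 members differed at least 2-fold in the same direction in both control numbers (all IDs: 1.15% higher and 1.22% lower in elastic gel). In Jak2 V617F cells 0 of 8 members differed at least 2-fold between J1 and J2 in both gels (all IDs: 0.379% higher and 0.311% lower in J1), and 0 of 8 between gels in both numbers (0.954% higher and 0.845% lower in elastic gel).

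The title numbers were then compared over both gels, in a model with a gel term for each genotype that was added after these values were seen. In control cells W1 lay above W2 by 4.46 for Ngp (log2 scale, SE 0.84, 95% interval 2.35 to 6.56, edgeR adjusted p = 0.0354) and by 2.71 for S100a9 (SE 0.58, interval 1.25 to 4.17, adjusted p = 0.0480). Lcn2 differed by −2.43 (SE 0.40, interval −3.43 to −1.42, adjusted p = 0.0263). Ltf (1.95, adjusted p = 0.118), Camp (−2.95, adjusted p = 0.130) and S100a8 (0.84, adjusted p = 0.249) missed the threshold. So 3 of 8 members were called, where 9.7% of IDs were, and 5 of 8 passed at an unadjusted p under 0.05, where 28.4% did. DESeq2 and limma-voom, on the same counts, called the same 3 genes. As these values had prompted the comparison, its p-values are no separate support for it. The 2 libraries of a number may also not be separate samples, and Ngp passed the low-count filter only through the W1 libraries. Lcn2 was no longer called without either control elastic library (−1.70, adjusted p = 0.0750 without W2 and 0.0849 without W1), Ngp was not called without any 1 of the 4 control libraries, and S100a9 was lost without the Jak2 V617F elastic J2 library (2.71, adjusted p = 0.0551). S100a8 was called without either control elastic library (1.70, adjusted p = 0.0346 and 0.0410). Without 1 control library such a value rests on the 2 control libraries of the other gel, and the S100a9 difference was then 1.54 (elastic gel) or 4.04 (viscous gel).

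Between J1 and J2 edgeR called 0 of 8 members (0% of IDs; unadjusted, 0 of 8 and 1.82%), as did DESeq2 and limma-voom. S100a9 had the largest value there, 0.97 (SE 0.52, interval −0.33 to 2.27, adjusted p = 1).

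**Figure D4:**
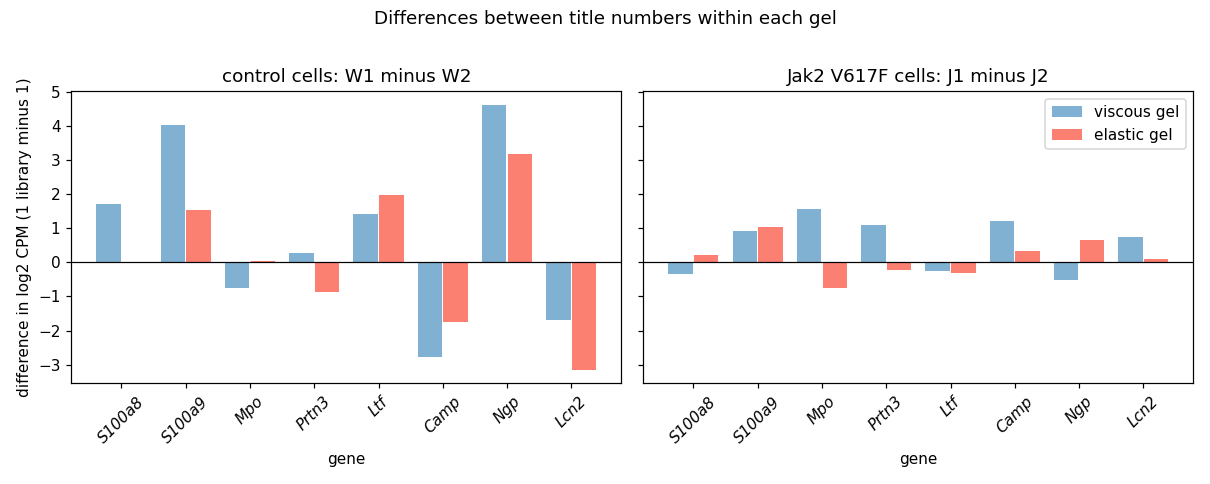
Difference in log2 CPM (prior count 2) between the 2 title numbers of a genotype in viscous and elastic gel, for the 8 members tested; each bar is 1 library minus 1 library. In control cells the bars of S100a9, Ltf and Ngp point up and those of Camp and Lcn2 down in both gels, while the Jak2 V617F bars stay within 1.57 of 0.

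The gel was compared next, to ask whether an elastic matrix changes these transcripts. No member passed the test. Averaged over genotypes, Lcn2 had the largest fitted difference, 2.12-fold higher in elastic gel (log2 fold change 1.08, SE 0.69, 95% interval −0.56 to 2.73, edgeR adjusted p = 0.914). S100a8 was 1.32-fold higher (log2 0.40, SE 0.34, interval −0.41 to 1.22, adjusted p = 0.934) and S100a9 1.22-fold higher (log2 0.29, SE 0.80, interval −1.62 to 2.20, adjusted p = 0.987).

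Of the 8 members tested, 5 had a fitted difference above 0 and 3 below, with a median of 0.28 (all 14785 IDs: 49.0% above 0, median −0.0043). Mpo, among those below, passed the low-count filter only through viscous libraries, so its sign follows in part from that selection. edgeR called 0 of the 8 at an adjusted p under 0.05 (0% of all IDs) and 0 at an unadjusted p under 0.05 (6.28% of IDs). DESeq2 called 0 (0.906% of IDs; unadjusted, 0 of 8 and 6.79%), limma-voom 0 (0%; unadjusted, 0 of 8 and 6.26%), and for 0 of 8 did the 4 elastic libraries all lie above the 4 viscous ones (2.07% of IDs) or all below (1.66%). The intervals reach beyond a 2-fold change in elastic gel for each of these 3 genes, so a change of that size was not excluded. Fits per library without both W1 libraries also tested 8 members, but with Ctsg in place of Ngp, which failed the low-count filter there. Without both W1 libraries the differences were 1.20 for Lcn2, 0.95 for S100a8 and 1.37 for S100a9 (edgeR adjusted p = 0.198, 0.128 and 0.330), with 0 of 8 called and these 3 of 8 at an unadjusted p under 0.05 (10.8% of IDs).

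Within control cells the ratio of elastic to viscous gel, 1 library against 1, differed in value between the 2 title numbers. Whether the gel response differs between them was not tested. Lcn2 was 3.75-fold higher in elastic gel in W2 and 1.36-fold in W1, S100a8 2.64-fold and 0.805-fold, and S100a9 5.42-fold and 0.959-fold. The fitted averages were 1.67 for Lcn2 (SE 0.99, interval −0.69 to 4.03, edgeR adjusted p = 0.985), 0.30 for S100a8 (SE 0.48, adjusted p = 0.987) and 0.28 for S100a9 (SE 1.12, adjusted p = 0.990), on the log2 scale. Without the control elastic W2 library the Lcn2 value became −0.64, and without the control viscous W2 library those of S100a8 and S100a9 became −0.30 and −0.63. Without both W1 libraries, which leaves 1 control library in each gel, they were 1.91, 1.41 and 2.44 (edgeR adjusted p = 0.532, 0.457 and 0.659), and these 3 of 8 members had an unadjusted p under 0.05 (6.59% of IDs). edgeR called 0 of 8 members at either threshold (all IDs: 0% adjusted, 4.85% unadjusted). DESeq2 called 0 of the 7 it gave an adjusted p (0.237% of IDs; unadjusted, 0 of 8 and 4.92%), limma-voom 0 of 8 (0%; unadjusted, 0 of 8 and 4.8%), and in 0 of 8 did the gels not overlap (13.1% of IDs higher and 13.8% lower in elastic gel).

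In Jak2 V617F cells the 3 well-covered genes were all higher in value in elastic gel in both numbers. Lcn2 was 1.17-fold (J1) and 1.82-fold (J2) higher, S100a8 1.72-fold and 1.18-fold, and S100a9 1.27-fold and 1.17-fold. Fitted log2 differences were 0.50 for Lcn2 (SE 0.96, interval −1.81 to 2.80), 0.50 for S100a8 (SE 0.48, interval −0.65 to 1.65) and 0.30 for S100a9 (SE 1.12, interval −2.39 to 3.00), each with an edgeR adjusted p of 1. Elastic libraries lay above viscous ones without overlap for S100a8, Ltf and Lcn2 (3 of 8, where 19.1% of IDs did) and below for Prtn3 (1 of 8, where 20.6% did). For Ltf and Prtn3 the nearest libraries held 11 against 10 and 10 against 12 counts, with overlapping Poisson intervals. edgeR called 0 of 8 at either threshold (all IDs: 0% adjusted, 3.08% unadjusted), DESeq2 0 (0.237% of IDs; unadjusted, 0 of 8 and 3.37%) and limma-voom 0 (0%; unadjusted, 0 of 8 and 3.09%). Without both W1 libraries S100a8 (0.50) was 1 of 8 at an unadjusted p under 0.05 (8.1% of IDs; its edgeR adjusted p = 0.487). Mpo (log2 −1.27, SE 0.85) and Prtn3 (−0.95, SE 0.66) had the lowest fitted values, and stood at −0.025 and −0.22 without the Jak2 V617F viscous J1 library, which was highest for both. Mpo passed the low-count filter only through that library and the control viscous W2 library, so its lower value in elastic gel follows in part from that selection.

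The difference between these gel responses tests whether the mutation alters them. It was −1.17 for Lcn2 (Jak2 V617F minus control, log2 scale, SE 1.36, 95% interval −4.44 to 2.09), 0.20 for S100a8 (SE 0.68, interval −1.43 to 1.82) and 0.025 for S100a9 (SE 1.59, interval −3.78 to 3.83), each with an edgeR adjusted p of 1.00. edgeR called 0 of 8 members (0% of IDs; unadjusted, 0 of 8 and 1.72%), DESeq2 0 (0.0135% of IDs; unadjusted, 0 of 8 and 1.67%) and limma-voom 0 (0%; unadjusted, 0 of 8 and 1.75%). The sign turned with the control libraries kept. Without both W1 libraries the differences were −1.41, −0.90 and −2.14 (these 3 of 8 at an unadjusted p under 0.05, where 2.95% of IDs were, and each with an edgeR adjusted p of 1.00), and without both W2 libraries they were 0.053, 0.82 and 0.37.

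Genotypes were compared within each gel. In viscous gel control cells had 297 ± 222 CPM of Lcn2 and Jak2 V617F cells 1409 ± 503 CPM (mean ± SD, n = 2 libraries each), a 4.74-fold higher level (log2 2.25, SE 1.00, interval −0.16 to 4.65) that missed the threshold (edgeR adjusted p = 0.664). Ngp was 4.74-fold lower (log2 −2.25, SE 1.66, adjusted p = 0.722) and stood at 2.74 on the log2 scale, with the opposite sign, without the control viscous W1 library, which held the 79 counts. S100a8 was 1.41-fold higher (log2 0.49, SE 0.48, adjusted p = 0.789), and S100a9 differed by 0.019 on the log2 scale (SE 1.12, interval −2.68 to 2.71, adjusted p = 0.999). Jak2 V617F libraries lay above control libraries without overlap for Prtn3, Camp and Lcn2 (3 of 8, where 18.6% of IDs did) and below for 0 of 8 (19% of IDs). For Prtn3 and Camp the nearest libraries held 12 against 10 and 13 against 11 counts, with overlapping Poisson intervals. edgeR called 0 of 8 members (0% of IDs), with 0 at an unadjusted p under 0.05 (7.31% of IDs). DESeq2 called 0 (0.413% of IDs), with Lcn2 at an unadjusted p of 0.0248 (1 of 8 under 0.05, where 8.42% of IDs were; DESeq2 adjusted p = 0.501), and limma-voom 0 (0%; unadjusted, 0 of 8 and 7.61%).

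In elastic gel control cells had 947 ± 1069 CPM of Lcn2 and Jak2 V617F cells 1988 ± 102 CPM (mean ± SD, n = 2 libraries each), 2.10-fold more (log2 1.07, SE 0.97, interval −1.26 to 3.40, edgeR adjusted p = 0.937). S100a8 averaged 37.2 ± 0.119 CPM in control and 60.0 ± 5.93 CPM in Jak2 V617F cells, 1.61-fold higher in the latter (log2 0.69, SE 0.48, interval −0.46 to 1.84, adjusted p = 0.937). S100a9 differed by 0.043 (SE 1.12, adjusted p = 0.997) and Ngp by −2.47 (SE 1.71, adjusted p = 0.937; 0.21 without the control elastic W1 library) on the log2 scale. S100a8 and Lcn2 lay above control without overlap (2 of 8, where 17.2% of IDs did) and Mpo below (1 of 8, where 18.9% did). For Mpo the nearest libraries held 6 against 8 counts, with overlapping Poisson intervals. edgeR called 0 of 8 (0% of IDs; unadjusted, 0 of 8 and 4.42%), DESeq2 0 (0.298%; unadjusted, 0 of 8 and 5.94%) and limma-voom 0 (0%; unadjusted, 0 of 8 and 3.79%).

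Counts summed per title number gave 2 sums against 2 for the genotype over both gels. Lcn2 was 2.72-fold higher in Jak2 V617F cells (log2 1.44, SE 0.92, interval −1.03 to 3.91, edgeR adjusted p = 0.795) and S100a8 1.51-fold higher (log2 0.59, SE 0.26, interval −0.098 to 1.28, adjusted p = 0.792). S100a9 differed by 0.034 (SE 0.82, adjusted p = 0.991) and Ngp by −2.34 (SE 1.40, adjusted p = 0.795). edgeR called 0 of 8 members (0% of IDs; unadjusted, 0 of 8 and 5.22%), DESeq2 0 (0.696% of IDs; unadjusted, 0 of 8 and 7%) and limma-voom 0 (0%; unadjusted, 0 of 8 and 5.04%). In 0 of 8 did the 4 Jak2 V617F libraries all lie above the 4 control libraries (3.5% of IDs) or all below (3.39%).

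The genotype effect averaged over the 8 libraries treats both libraries of a title number as separate samples. edgeR then put Lcn2 at 1.66 (log2 scale, SE 0.70, interval −0.011 to 3.33, adjusted p = 0.422). It called 0 of 8 members (0.0135% of IDs; unadjusted, 0 of 8 and 11.8%), and DESeq2 called 0 (2.27% of IDs), with Lcn2 and Ngp at an unadjusted p under 0.05 (2 of 8, where 13.4% of IDs were; DESeq2 adjusted p = 0.245 and 0.339). Ngp passed the low-count filter in these fits only through the control W1 libraries, so its difference follows in part from that selection. limma-voom called 0 of 8 (0.00676% of IDs) and passed Lcn2 at an unadjusted p under 0.05 (1 of 8, where 10.9% of IDs did; limma-voom adjusted p = 0.445). Without both W1 libraries edgeR gave 0.93 for Lcn2, 1.14 for S100a8 and 2.08 for S100a9 (adjusted p = 0.263, 0.131 and 0.218). Ctsg passed the filter there only through the Jak2 V617F viscous J1 library, which held 20 counts. Its value follows from that selection and is not given.

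These genotype values depended on which control number was kept. In the fits per gel Ngp passed the low-count filter only through the W1 libraries, where it was high (79 and 58 counts). Its difference from W1 in those fits follows in part from that selection. With W1 alone as control (both W2 libraries left out), edgeR called Lcn2 and Ngp in viscous gel (log2 3.34 and −3.21, adjusted p = 0.0177 and 0.0438), in elastic gel (3.39 and −3.33, adjusted p = 0.0108 and 0.0351) and in summed counts (3.39 and −3.27, adjusted p = 0.00237 and 0.00707). In those fits 4.98%, 7.79% and 16.6% of all IDs were called, and the lone control number is assumed to vary like the Jak2 V617F libraries. With W2 alone as control, no ID was called, whether a member or not. The Lcn2 difference was then 1.63 in viscous gel, 0.22 in elastic gel and 0.64 in summed counts, and that of S100a9 was 3.15, 1.01 and 1.62 (adjusted p from 0.306 to 0.989 for both genes). For S100a8 it was 1.59, 0.69 and 0.98. Ctsg, with 0 counts in both W2 libraries, passed the filter in these fits only through J1. Its value follows from that selection and is not given.

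**Figure D5:**
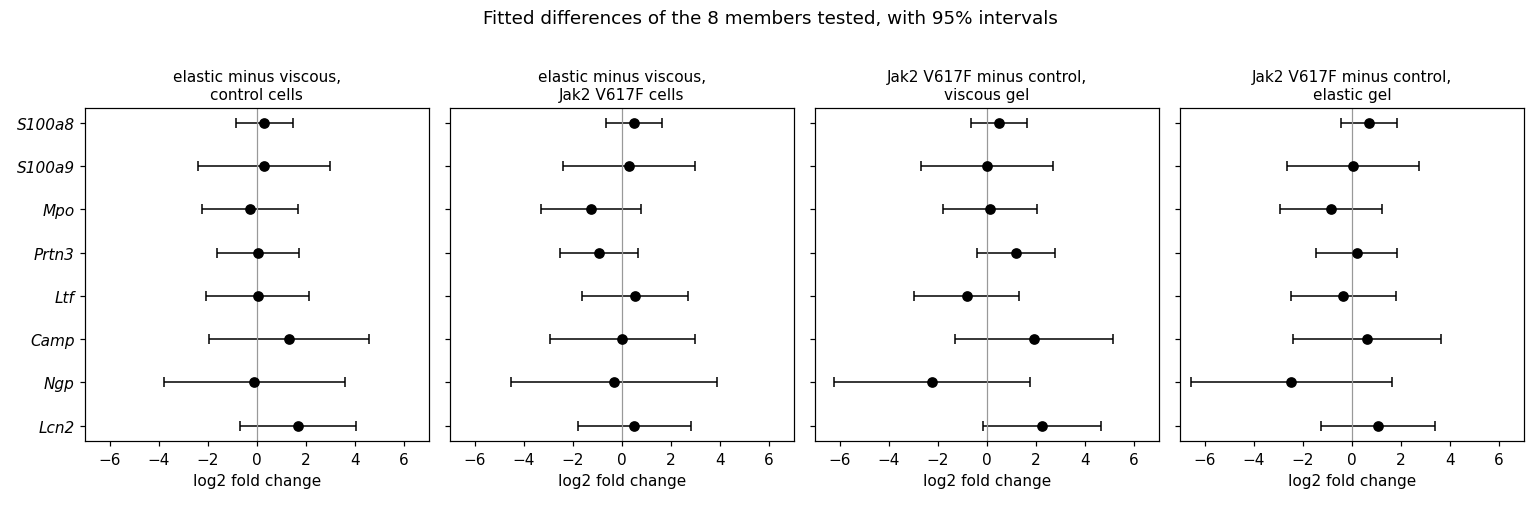
Fitted log2 fold changes of the 8 members that passed the low-count filter, with 95% intervals, for elastic minus viscous gel in each genotype and for Jak2 V617F minus control in each gel. Every interval includes 0; that of Lcn2 between genotypes in viscous gel comes nearest to leaving it (−0.16 to 4.65).

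Among all 14785 IDs, the spread of log2 CPM over the 8 libraries was wide for low and well-covered members alike. The SD was 1.63 for Ngp, 1.57 for Lcn2, 1.33 for S100a9 and 1.32 for Camp, above 97.8%, 97.5%, 95.7% and 95.6% of IDs. It was 0.69 for Ltf, 0.66 for S100a8, 0.64 for Mpo and 0.57 for Prtn3, above 76.1% to 82.7% of IDs. For the low-count genes this SD includes counting error.

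Likeness of pattern was measured as the root mean square difference between centred log2 CPM over the 8 libraries. S100a8 and S100a9 differed by 0.83, and 46 of 1790 IDs (mean 50 counts or more, SD 0.5 or more) were closer to S100a9 than S100a8 was. The measure also counts unlike sizes of swing. The Pearson correlation of the pair was 0.81, and Ltf and Ngp, 1.03 apart, had one of 0.85. The IDs nearest to the mean profile of the pair were ENSMUSG00000000244 (0.30) and ENSMUSG00000100838 (0.32). Camp and Lcn2 were the closest pair among the 8 members (0.60) and Ngp and Lcn2 the farthest apart (2.79). These distances are over libraries that share title numbers and are descriptions only.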

How the data were processed

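RNA was measured by mRNA sequencing in 8 libraries, assigned to 4 groups of 2 from the labels. The authors deposited raw integer counts by Ensembl ID, in a series table and in 8 files of 1 library each that held equal values. Salmon, DESeq2 and the build GRCm38 appear in the submitters' processing notes without versions or order. Use of strand and the summing of transcripts to genes are not given in the sources used here. No row summed to less than 10.

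Symbols of the 10 members came with the list of IDs. Positions were taken from RefSeq GRCm38.p6 by symbol (10 matched). That table pairs 0 Ensembl IDs with symbols, so 12 lists of marker and pathway genes were not tested. Members and lists were chosen with earlier results of these data known. All members are named; outside them, the 2 IDs nearest in profile to the S100 pair are, and the model that overlaps Mpo.

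edgeR 4.0.16 (R 4.3.3) was fitted to the whole table: filterByExpr by group (14785 IDs, 8 members; Elane and Ctsg failed), TMM, and a quasi-likelihood model of 4 group means, two-sided, with Benjamini-Hochberg adjustment. Counts summed per title number were fitted alike (15239 IDs). SE derive from the test statistic. Log2 CPM used a prior count of 2. Alternatives were other scalings, filters and tests (DESeq2 1.42.0, limma-voom 3.58.1), libraries left out singly or by title number, a block for that number, the 4 libraries compared alone, and the genotype effect averaged over 8 libraries. Added after the data were seen were that average without each title number, and a test between title numbers with a gel term per genotype. Figures used matplotlib 3.10.9.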

Additional observations from a re-analysis of the deposited data

How the results depend on the processing

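Besides the 8 members' own counts, the number of libraries limits these results: a group has 2, and in most of the 7 comparisons 1 library can turn a fitted difference. Of 1036 alternative values of the members, 915 kept their sign and their side of the threshold, 9 passed it and 112 changed sign, 91 of them with libraries left out; a library left out can leave 1 in a group, which is then assumed to vary like the other groups. In 135 alternative fits a member was called in 4, all of them genotype fits without both W2 libraries, which leave W1 alone as control. limma-voom, DESeq2, both other scalings and both other filters called 0 members in each of the 7 comparisons.

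With libraries left out, the log2 difference between gels over both genotypes ranged from −0.070 to 1.63 for Lcn2 and from −0.19 to 1.85 for S100a9. In control cells it ranged from −0.64 to 2.76 for Lcn2, from −0.32 to 1.41 for S100a8 and from −0.69 to 3.41 for S100a9. In Jak2 V617F cells it ranged from −0.30 to 0.83 for S100a9 and from −2.54 to 0.42 for Mpo. The difference of gel responses ranged from −2.27 to 1.13 for Lcn2, from −0.90 to 0.82 for S100a8 and from −3.10 to 0.99 for S100a9. Between genotypes in viscous gel the range was −0.12 to 1.59 for S100a8, −0.89 to 3.15 for S100a9 and −3.21 to 2.74 for Ngp. In elastic gel it was −0.56 to 1.01 for S100a9 and −3.35 to 0.21 for Ngp, and in summed counts −0.69 to 1.62 for S100a9 and −3.27 to 1.13 for Ngp. The average over libraries gave −0.53 and −0.70 for S100a9 without J1 and W2. Between title numbers, the range was −0.0099 to 1.70 for S100a8 in control cells, and −0.35 to 0.20 for S100a8, −1.09 to 1.90 for Mpo and −0.27 to 1.22 for Prtn3 in Jak2 V617F cells. In control cells 2 to 3 members were called there. The other ranges of printed genes kept their sign.

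Other settings turned signs of values near 0. The stricter filter of 50 counts in 2 libraries gave −0.0092 for S100a9 between genotypes in viscous gel, and limma-voom gave −0.013 for S100a8 and −0.81 for S100a9 as the difference of gel responses; the cause was not tested. With the title number as a replicate block these 2 differences were −0.022 and −0.79 (fixed, edgeR) and −0.016 and −0.83 (random, limma-voom), and 0 members were called in any comparison of gels. In the fixed block Lcn2 had an unadjusted p under 0.05 over both genotypes (0.86, edgeR adjusted p = 0.322) and in control cells (1.18, edgeR adjusted p = 0.474), as had 1757 and 1397 IDs, against 928 and 717 without the block. In Jak2 V617F cells 0 of 8 members and 1036 IDs had such a p in the fixed block, against 455 IDs without it. The gel pairs' deviations from their group means had a correlation of 0.53 for the control numbers and −0.089 for those of Jak2 V617F. The main fits took no pairing in either genotype. In control cells the difference between W1 and W2 is thus part of the error of the gel tests.

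The summed share without S100a8 and S100a9 was 0.0449% and 0.0150% of a library in control viscous W2 and W1, 0.166% and 0.0197% in control elastic W2 and W1, 0.182% and 0.103% in Jak2 V617F viscous J1 and J2, and 0.191% and 0.202% in Jak2 V617F elastic J2 and J1. Over the TMM-scaled total, the share of all 10 moved beyond its counting interval in control viscous W1 (0.0242%), control elastic W2 (0.176%), Jak2 V617F viscous J1 (0.184%) and J2 (0.112%) and Jak2 V617F elastic J1 (0.217%).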
